A study of Mus musculus with 8 samples.

Results

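Of 99999 genomic sites open in 3134 cells, 1580 were listed as DNase I hotspots in parental cells and in DNCHD4 cells, each with and without tetracycline, and in DNBrg1 cells only after tetracycline was removed. They were chosen by merging the hotspots of 8 lists wherever these overlapped by at least 1 bp, and by keeping the sites listed in both parental libraries, both DNCHD4 libraries and the DNBrg1 library without tetracycline, but not in the DNBrg1 library with it. They are called after-only sites here. Listing in the DNSnf2h libraries was not part of the choice. Another 20290 sites were listed in all 6 of these libraries, 3072 in the same libraries except DNBrg1 without tetracycline (before-only sites), and 3355 in the 4 parental and DNCHD4 libraries but in neither DNBrg1 library. The after-only sites were thus 5.58% of the 28297 sites that the parental and DNCHD4 libraries shared.

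The 3134 line is a mouse mammary epithelial line. DNBrg1, DNCHD4 and DNSnf2h are lines derived from it that carry a dominant-negative remodeler whose expression tetracycline represses. The dominant-negative Snf2h is FLAG-tagged human SNF2H with lysine 211 changed to arginine, and the dominant-negative Chd4 is FLAG-tagged mouse Chd4 with lysine 250 changed to cysteine. Both were integrated by retroviral vector into 3134 cells holding the tetracycline transactivator. The Brg1 construct is not described in the sources used here, nor is it given whether each line is 1 clone. Cells of the 8 groups were held with or without tetracycline for 48 hours in medium with charcoal-dextran treated serum. Nuclei were digested with DNase I at 60 to 80 U/ml for 3 min, and fragments of 100 to 500 bp were sequenced. With 1 library in each group, differences have no replicate check, no p-value is given, and all intervals (95%) cover counting error only.

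Brg1 is the catalytic subunit of SWI/SNF complexes, which use ATP to slide or evict nucleosomes and thereby let transcription factors and the transcription machinery reach DNA. DNase I cuts such nucleosome-depleted DNA preferentially, so a hotspot marks an enhancer, promoter or other open element. An ATPase-defective Brg1 is thought to enter the complexes and block their activity. A site that appears in a list only after such a protein is induced is the opposite of the loss usually looked for in such lines, and the first question is whether its density with tetracycline could have been seen.

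Each hotspot has a highest tag density, given on a scale that differs by library, and each list begins at its own lowest density. With tetracycline the lists began at 13.02 in parental, 16.4 in DNBrg1, 8.05 in DNCHD4 and 8.03 in DNSnf2h cells. Without it they began at 10.04, 9.19, 5.09 and 8.06 in the same order. Densities were whole multiples of 1 step per library, so the lowest hotspot held 26 to 45 tags. The DNBrg1 library with tetracycline had the coarsest step, 0.586 per tag against 0.179 to 0.31 in the other libraries. Its list began 1.79 times higher than the DNBrg1 list without tetracycline, at 28 tags against 36. The build is mm9, and the genes and bases at the sites were not analysed here.

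Most after-only sites were too weak in the library that lists them to have been listed at the same density with tetracycline. Their density in DNBrg1 cells without tetracycline ran from 9.19 to 81.1 with a median of 13.5, which is 53 tags. At the coarser step of the library with tetracycline the median density would be 23 tags, below the 28 tags at which that list begins. As deposited, 1132 sites (71.6%, Wilson interval 69.4 to 73.8) lay below 16.4, the lowest density listed with tetracycline, and 448 (28.4%, 26.2 to 30.6) lay at or above it. Over all 6724 sites listed in DNBrg1 cells without tetracycline only, 16.3% were at or above it. At least 2 times that value was reached by 24 sites (1.52%, 1.02 to 2.25), the only ones for which a 2-fold higher density could follow from the lists as deposited. Of the 34992 sites listed in either DNBrg1 library, 0.26% were at least 2-fold higher without tetracycline by the same measure. These counts concern the contrast by which the sites were chosen and are a description only.

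**Figure D1:**
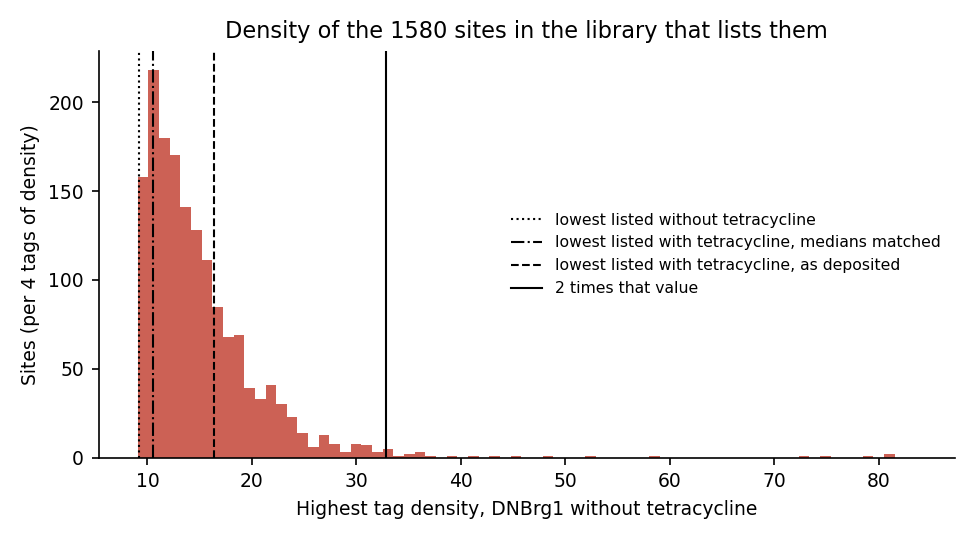
Highest tag density of the after-only sites in DNBrg1 cells without tetracycline (x axis), with the number of sites per 4 tags of density (y axis). Vertical lines mark the lowest density listed without tetracycline (9.19), the lowest listed with it after matching the medians of the libraries (10.5) and as deposited (16.4), and 2 times the last value. The bulk of the sites lies to the left of the dashed line at 16.4, and 24 sites lie to the right of the solid line.

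The count depended on how the DNBrg1 libraries were scaled to each other. At the 22627 sites listed in both DNBrg1 libraries, density without tetracycline had a median log2 ratio of -0.64 to density with it. With that median set to 0, the list with tetracycline begins at 10.5 on the scale of the other library. On this scale 1316 sites (83.3%, 81.4 to 85.05) lay at or above it, beside 71.3% of all sites listed without tetracycline only, and 188 (11.9%, 10.4 to 13.6) lay at 2 times it or more, beside 2.87% of the sites of either library. At the edge of the choice, the 20 sites listed in all 6 libraries with the lowest density with tetracycline, all at 16.4, had 10.2 to 20.7 without it, with a median of 12.1, and the 20 weakest after-only sites all had 9.19.

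The sites ranked low in the parental and DNBrg1 lists and near or above the middle of the longer DNCHD4 lists. In parental cells their median density was 19.7 with tetracycline, from 13.02 to 145, which placed the median site at the 26.3rd percentile of that list. Without tetracycline it was 17.5, from 10.04 to 241, at the 35.5th percentile. In DNCHD4 cells the medians were 20.4 with and 24.1 without tetracycline, at the 46.2nd and 68.8th percentiles of lists that reach further down. In DNBrg1 cells without tetracycline the median site stood at the 26.3rd percentile. Sites listed in all 6 libraries were stronger throughout, with a median of 55.8 in parental cells with tetracycline and 30.6 in DNBrg1 cells without it. The 3355 sites in neither DNBrg1 list had 20.5 and 15.96 in the parental libraries with and without tetracycline, and before-only sites 30.1 and 18.8. With tetracycline the after-only sites were thus closer to the first set in parental cells, and without it to the second.

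**Figure D2:**
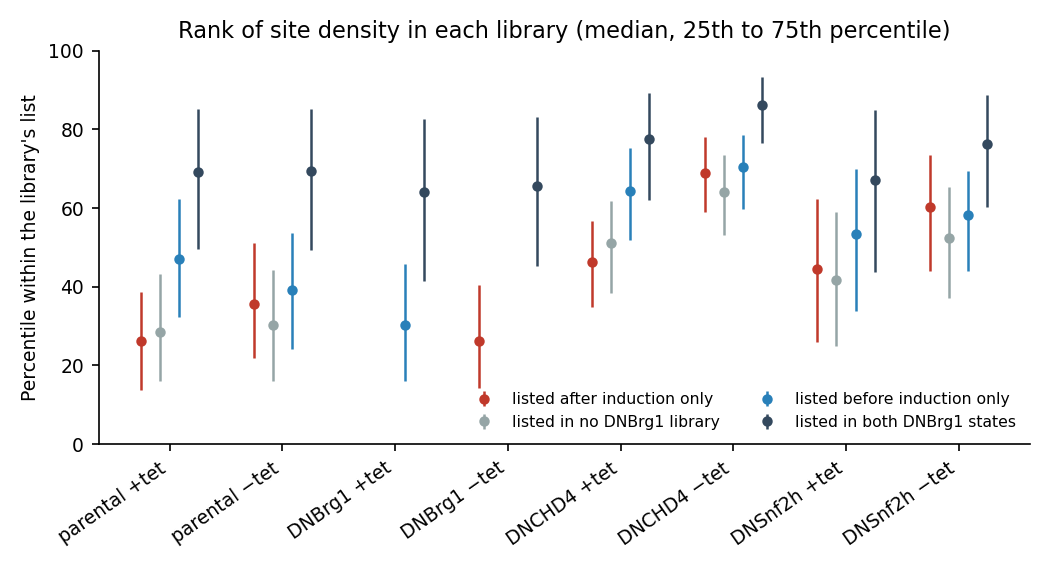
Percentile of site density within each library's own list (y axis) for the 4 sets of sites in the 8 libraries (x axis); points are medians and bars run from the 25th to the 75th percentile. After-only sites sit at a median of 26.3 in parental cells with tetracycline and in DNBrg1 cells without it, below the sites listed in both DNBrg1 states in each library where both sets have values.

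In the other uninduced lines many of these sites had a density that the DNBrg1 list with tetracycline would have included. In parental cells with tetracycline 1146 sites (72.5%, 70.3 to 74.7) reached 16.4, as did 1140 (72.2%, 69.9 to 74.3) in DNCHD4 cells with tetracycline and 954 (60.4%, 57.9 to 62.8) in both. Over the 28297 shared sites the 25th percentile with tetracycline was 23.9 in parental and 25.4 in DNCHD4 cells. For sites in neither DNBrg1 list it was 16.43 and 17.0. After-only sites thus reached 16.4 no more often than either set, and doing so was not particular to them. At 2 times 16.4 the counts were 153 in parental cells, 238 in DNCHD4 cells and 123 (7.78%, 6.56 to 9.21) in both. The shared sites had medians of 41.2 and 44.0 in these 2 libraries. Absence from the DNBrg1 list does not show a density below 16.4 at each of these sites, since they include 5 sites of a dense run of hotspots on chromosome 11 and positions where the numbering of the list skips a number. Of these 123, 49 reached 16.4 in DNBrg1 cells without tetracycline and 10 reached 2 times that value. The library medians were close, at a log2 ratio of DNBrg1 to parental cells of -0.02 and to DNCHD4 cells of 0.01 at shared sites with tetracycline, and after correction for them 1116 sites reached 16.4 in parental and 1140 in DNCHD4 cells.

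The behaviour of these sites in lines without dominant-negative Brg1 was not used in the choice beyond their being listed. In parental and DNCHD4 cells their ratio of density without over with tetracycline was higher than that of the other sets. In parental cells, which hold no dominant-negative protein, the median log2 ratio of density without over with tetracycline was -0.16 (SD 0.53 across 1580 sites), against -0.40 over all 28770 sites listed in both libraries. In DNCHD4 cells it was 0.26 (SD 0.69), against 0.03 over 40670 sites. In DNSnf2h cells it was 0.02 (SD 0.58) at the 488 sites listed in both libraries, against -0.02 over 16220. Relative to the median of each line, the sites thus stood 0.24 higher in parental, 0.23 higher in DNCHD4 and 0.04 higher in DNSnf2h cells. Sites listed in all 6 libraries had medians of -0.40, 0.06 and 0.03 in the same order, so in DNSnf2h cells the after-only sites were no higher than these. Sites in neither DNBrg1 list had medians of -0.38, -0.16 and -0.24. Before-only sites had -0.65, -0.46 and -0.42, on the other side of the library median in each line. None of these differences has a test, since each rests on 1 library per state.

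**Figure D3:**
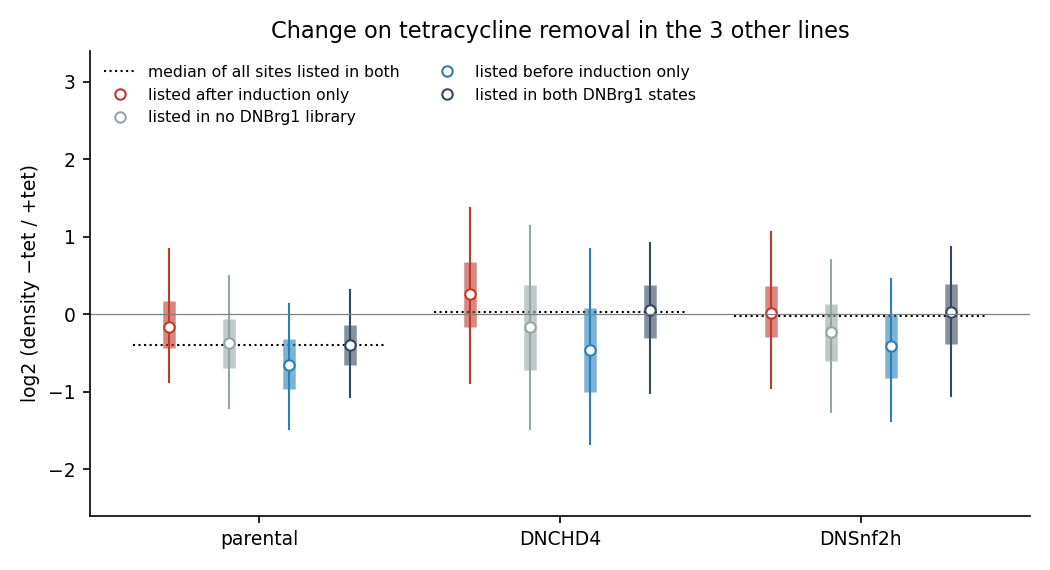
Log2 ratio of density without over with tetracycline (y axis) in parental, DNCHD4 and DNSnf2h cells (x axis) for the 4 sets of sites; circles are medians, thick bars the 25th to 75th and thin lines the 5th to 95th percentiles, and dotted lines the medians of all sites listed in both libraries of a line. After-only sites have medians of -0.16, 0.26 and 0.02, and before-only sites -0.65, -0.46 and -0.42.

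Counted site by site, densities at least 2-fold higher without tetracycline were more frequent at after-only sites than over all sites of a line. Densities at least 2-fold lower were less frequent, but the lists limit that count, as given below. In parental cells 54 after-only sites (3.42%) were at least 2-fold higher without tetracycline, beside 0.525% of all sites listed in both libraries, and 40 (2.53%) at least 2-fold lower, beside 8.7%. With the median ratio set to 1, 143 (9.05%) were higher, beside 2.09%, and 3 (0.19%) lower, beside 1.82%. In DNCHD4 cells 213 (13.5%) were higher, beside 5.93%, and 57 (3.61%) lower, beside 7.87%. Setting the DNCHD4 median to 1 gave 193 higher (12.2%), beside 5.38%, and 67 lower (4.24%), beside 8.51%. In DNSnf2h cells 27 of 488 (5.53%) were higher, beside 2.36%, and 20 (4.1%) lower, beside 6.74%. Setting that median to 1 gave 28 (5.74%), beside 2.53%, and 20 (4.1%), beside 6.39%. A 2-fold fall is counted only at a site still listed without tetracycline. The parental list without it begins at 10.04, so a 2-fold fall from the after-only median of 19.7 would go unlisted. Over all sites listed with tetracycline the parental median was 32.9. In DNSnf2h cells, where that list begins at 8.06, the after-only median of 13.3 and the 14.8 over all sites are limited alike. How far this shaped the lower shares was not tested, nor were the other shares. The after-only sites, 5.58% of the shared sites, made up 54 of the 151 shared sites (35.8%) that were at least 2-fold higher in parental cells and 213 of 1370 (15.5%) in DNCHD4 cells. In DNSnf2h cells they were 27 of 371 (7.28%), where they were 3.22% of the shared sites with a ratio.

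Counting error left most single differences undecided in parental and DNSnf2h cells, and fewer in DNCHD4 cells. After-only sites held fewer tags, with a median of 64 in parental cells with tetracycline against 106 over all sites listed there. An interval leaves out 1 less easily at fewer tags, so the shares below depend on tag number as well as on level. The exact interval of the parental ratio lay above 1 at 219 sites (13.9%), beside 5.19% of all sites listed in both libraries, below 1 at 287 (18.2%), beside 54.1%, and held 1 at 1074. After the median was set to 1 it lay above 1 at 489 sites (30.9%), beside 20.6%, and below at 74 (4.68%), beside 19.6%. In DNCHD4 cells it lay above 1 at 672 sites (42.5%), beside 31.1%, and below at 238 (15.1%), beside 28.2%, and held 1 at 670 (42.4%). With that median set to 1 the counts were 637 (40.3%), beside 29.1%, and 259 (16.4%), beside 30%. In DNSnf2h cells it lay above 1 at 99 of 488 sites (20.3%), beside 21.8%, which is near the background, and below at 87 (17.8%), beside 26.2%, and held 1 at 302. With that median set to 1 they were 100 (20.5%), beside 22.9%, and 85 (17.4%), beside 25.5%.

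The difference between the sets widened with density in parental and DNCHD4 cells. Sites were grouped by the mean log2 density of the 2 libraries of a line in steps of 0.5. From 11.3 to 16 the parental median log2 ratio of after-only sites was -0.29 (472 sites) against -0.36 over all shared sites of that density. From 16 to 22.6 it was -0.19 (622 sites) against -0.43, from 22.6 to 32 it was 0.00 (0.0035, 322 sites) against -0.46, and from 32 to 45.3 it was 0.34 (97 sites) against -0.48. The weakest sites thus lay close to other sites of their density, and the strongest lay on the other side of 0. The parental lists begin at 13.02 with and 10.04 without tetracycline, which limits the ratios that a site in the lowest range can have. How far this shaped the widening was not tested. In DNCHD4 cells the same 4 ranges gave 0.08, 0.20, 0.36 and 0.49, against -0.07, -0.03, -0.02 and 0.00 (-0.0047). In DNSnf2h cells they gave 0.03, -0.09, 0.05 and 0.26 against 0.00 (0.0004), -0.05, -0.06 and 0.00 (-0.0038), the last from 16 sites.

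The density of a site in the DNBrg1 library that lists it went with its ratio in the other lines. The 264 sites below 10.5 had median log2 ratios of -0.30 in parental, 0.09 in DNCHD4 and -0.25 in DNSnf2h cells. The 868 sites from there to 16.4 had -0.20, 0.23 and 0.01. The 424 sites from 16.4 to 2 times that density had 0.02, 0.40 and 0.17, and the 24 strongest had 0.47, 0.61 and 0.47. The order was the same in the 3 lines. The grouping used the DNBrg1 density through which the sites were chosen, and the reason for the order was not tested.

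Relative to the median of each line, 1128 after-only sites (71.4%) were higher without tetracycline in parental and 1003 (63.5%) in DNCHD4 cells. Both lines were higher at 769 (48.7%), beside 30.3% of the 28297 shared sites, and neither at 218 (13.8%), beside 31.8%. Across sites, the ratios of the 2 lines had a Spearman rho of 0.33 at the 1580 after-only sites and 0.40 at the shared sites. The after-only sites thus differed in level, and their ratios did not go together more closely than at other sites. On the deposited scale 39 after-only sites (2.47%) passed 2-fold in both lines, beside 0.353% of the shared sites. The libraries of the 2 lines are separate. All 39 were listed in DNSnf2h cells without tetracycline and 19 of them with it, while 44.2% and 42.0% of all after-only sites were. Their parental median density was 20.5 with and 56.6 without tetracycline, and in DNCHD4 cells 22.5 and 68.5. In DNBrg1 cells without tetracycline they had 10.5 to 78.6 with a median of 18.9, and 26 of them reached 16.4. That was at least 2-fold below the parental library without tetracycline at 32 of the 39, with a median log2 ratio of -1.84, although choosing sites for a high parental value lowers this ratio. Another 39 sites at least 2-fold higher in both lines were listed in both DNBrg1 states, where 8 of them were at least 2-fold higher without tetracycline. Their median log2 ratio to the parental library without tetracycline was -1.09. Of these, 37 were listed in DNSnf2h cells without tetracycline and 28 with it. Of 20 such sites in neither DNBrg1 list, 18 and 9 were, so this listing was not particular to after-only sites.

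Of the 24 strongest sites, 5 lay together on chromosome 11 between 3034525 and 3098629, in a dense run where the DNBrg1 list with tetracycline held 24 to 31 hotspots within 50 kb of each site. Within that distance the library with tetracycline listed nothing below 63.9 to 72.6, and the 5 sites had 52.8 to 81.1 without it, so a 2-fold difference is not shown there. None of the 5 was at least 2-fold higher in another line, and their parental log2 ratios were 0.03 to 0.22. The other 19 sites had 32.9 to 78.6 in DNBrg1 cells without tetracycline. Without tetracycline 17 of the 19 were higher in parental cells (median log2 ratio 0.73), 17 in DNCHD4 cells (0.67) and 14 of the 14 with a ratio in DNSnf2h cells (0.84). Over all sites listed in both libraries of a line, 16.8%, 52.4% and 48.7% were higher. At least 2-fold higher were 7, 6 and 6 of them, beside 0.525%, 5.93% and 2.36% of all sites. The exact interval lay above 1 at 13, 13 and 11, beside 5.19%, 31.1% and 21.8%. The 19 were picked by the DNBrg1 density through which the sites were chosen. Against the lowest density listed with tetracycline within 50 kb, or in the whole list where none was, only 5 of the 1580 sites stood at least 2-fold higher. Leaving out 100 kb windows that held 10 or more merged sites left 7 of the 24.

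**Figure D4:**
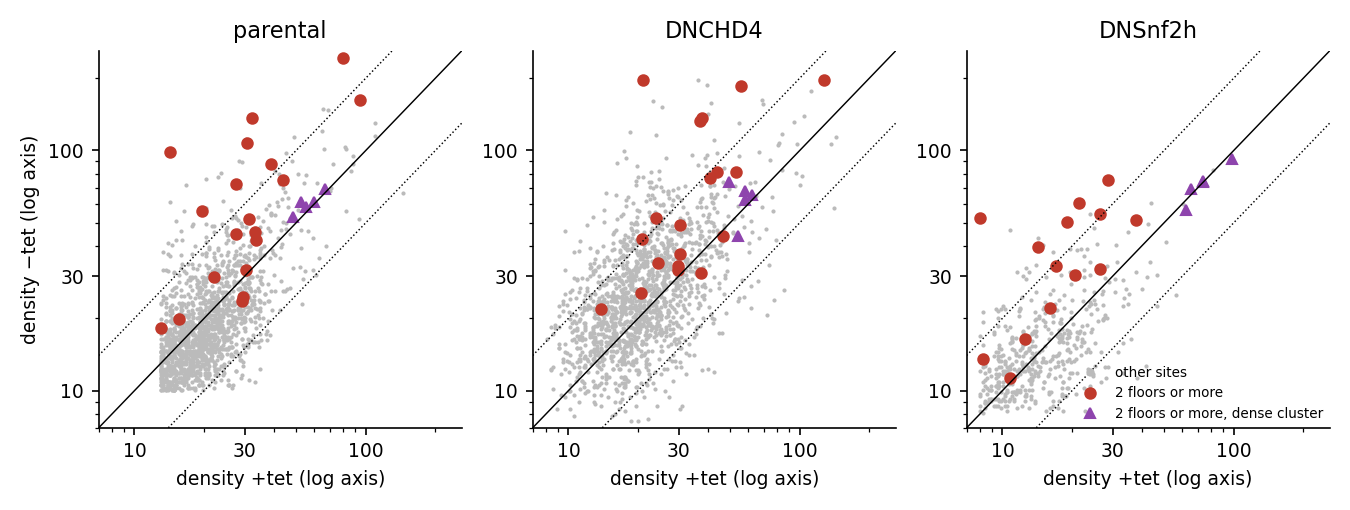
Highest tag density with (x axis) and without tetracycline (y axis), both on log axes, at the after-only sites in parental, DNCHD4 and DNSnf2h cells (488 sites in the last). Red circles are the 19 sites, and purple triangles the 5 sites of the dense run on chromosome 11, at 2 floors or more, that is with at least 2 times the density of 16.4 in DNBrg1 cells without tetracycline; the solid line marks equal density and the dotted lines a 2-fold difference. In parental cells 17 of the 19 red circles lie above the solid line, while the triangles lie close to it.

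The site that stood highest over the DNBrg1 list with tetracycline was on chromosome 4 from 64330556 to 64331419. It had 78.6 in DNBrg1 cells without tetracycline, 4.79 times the lowest of the 3 hotspots listed with tetracycline within 50 kb, which was also the lowest of the list. In parental cells it had 32.2 with and 137 without tetracycline, 4.24-fold higher (3.43 to 5.28). DNCHD4 cells, at 37.9 and 137.1, and DNSnf2h cells, at 19.05 and 50.6, showed 3.61-fold (3.1 to 4.23) and 2.66-fold (2.1 to 3.38) higher density. All 4 lines were thus high without tetracycline at this site. The numbering of the DNBrg1 list with tetracycline skips a number at this position, so 4.79 is not a firm bound.

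On chromosome 1 from 104524477 to 104525125 the density was 58.9 in DNBrg1 cells without tetracycline, 3.59 times the lowest listed with it. Parental cells had 19.5 and 55.9 with and without tetracycline, DNCHD4 cells 30.4 and 48.8, and DNSnf2h cells 8.22 and 13.5. The libraries without tetracycline of the parental and DNBrg1 lines were nearly level here. Parental, DNCHD4 and DNSnf2h cells were each higher without than with tetracycline, and DNBrg1 cells have no value with it. No hotspot was listed within 50 kb in DNBrg1 cells with tetracycline, and a number was missing at this position too.

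On chromosome 19 from 34624776 to 34627071 DNBrg1 cells without tetracycline had 41.3, which was 2.07 times the lowest of the 3 neighbours listed with tetracycline, with a number missing at the position. Parental cells had 30.7 and 107.1 there, 3.49-fold higher without tetracycline (2.8 to 4.39), and DNSnf2h cells 21.5 and 60.7, 2.82-fold higher (2.27 to 3.53). DNCHD4 cells had 43.8 and 81.7. DNBrg1 cells stayed below each of the other lines without tetracycline at this site, by the deposited scale.

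Chromosome 13 held 2 of the 6 sites ranked highest over their neighbourhood, and at neither was a number missing. From 49394068 to 49394981 DNBrg1 cells without tetracycline had 39.5, 2.05 times the lowest of 7 neighbours, and parental cells had 43.7 and 75.4, DNCHD4 cells 52.96 and 81.7, and DNSnf2h cells 17.0 (16.99) and 33.1. From 24466397 to 24468143 the value was 31.6, 1.93 times the lowest density of the list with tetracycline, beside 81.8 and 101 in parental, 105 and 140 in DNCHD4 and 42.4 and 49.4 in DNSnf2h cells. The second site was strong in parental cells in both states. DNBrg1 cells stood below all 3 other lines there without tetracycline. On chromosome 10 from 6063566 to 6064323, the last of the 6, DNBrg1 cells had 36.7 without tetracycline, 2.24 times the lowest listed with it and again with a number missing, and parental cells 31.3 and 52.0, DNCHD4 cells 23.8 and 52.1, and DNSnf2h cells 20.5 and 30.4.

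The after-only site with the highest parental ratio, chosen by that value, was on chromosome 11 from 35761439 to 35762613. Parental cells had 14.3 with and 98.9 without tetracycline, 6.93-fold higher (5.1 to 9.63). The 2 lines not used to pick it were also higher without tetracycline. DNCHD4 cells had 20.9 and 197, a 9.39-fold difference (7.75 to 11.5), and DNSnf2h cells 8.03 and 52.4, a 6.53-fold difference (4.71 to 9.23). Induced DNBrg1 cells had 35.5, which was 2.16 times the lowest density of the list with tetracycline and 1.89 times the lowest within 50 kb, and a number was missing at the position. A further 2 sites followed. On chromosome 17 from 7016838 to 7017755 parental density was 16.7 and 72.1, and DNCHD4 density 18.96 and 60.3, but DNBrg1 cells had 15.8 without tetracycline, under the lowest density listed with it. On chromosome 9 from 119090089 to 119091014 parental density was 14.3 and 61.0, DNCHD4 density 17.7 and 92.6, and DNBrg1 density 10.97. DNSnf2h cells listed both sites only without tetracycline, at 17.7 and 35.1.

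At the other end, 3 sites had the lowest parental ratios outside chromosome 18, and these were lower without tetracycline in DNCHD4 cells. On chromosome 7 from 125248032 to 125248771 parental density was 33.2 and 10.8 with and without tetracycline, 3.07-fold lower (2.13 to 4.49). DNCHD4 density there was 27.4 and 22.7, 1.2-fold lower with an interval that held 1 (0.94 to 1.55). DNBrg1 density was 16.3 without tetracycline. On chromosome 11 from 59107219 to 59107999 the values were 34.7 and 12.4 in parental, 38.1 and 19.98 in DNCHD4 and 14.2 and 11.5 in DNSnf2h cells, and 13.3 in DNBrg1 cells without tetracycline. On chromosome 8 from 37179962 to 37180641 they were 26.4 and 10.3 in parental and 26.7 and 12.3 in DNCHD4 cells, and 9.19 in DNBrg1 cells. None of the 3 reached 16.4 in DNBrg1 cells, so a higher density after induction is not shown at any of them.

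A typical after-only site was near the detection limit of several lists. Sites at the median DNBrg1 density of 13.5 included chromosome 1 from 159272482 to 159273034, with 13.3 and 10.8 in parental and 12.9 and 13.3 in DNCHD4 cells, and chromosome 2 from 31642395 to 31643043, with 17.4 and 14.7 in parental and 20.04 and 25.5 in DNCHD4 cells. Neither was listed in DNSnf2h cells. Sites at the same DNBrg1 density could be far stronger elsewhere: chromosome 1 from 91270621 to 91271357 had 46.2 and 58.2 in parental and 46.3 and 73.8 in DNCHD4 cells, and from 72792759 to 72793563 the values were 28.5 and 69.8, and 11.99 and 48.8. Among sites at the lowest DNBrg1 density, 9.19, chromosome 1 from 38343284 to 38344076 had 22.01 and 15.4 in parental, 37.2 and 18.6 in DNCHD4 and 20.2 and 18.9 in DNSnf2h cells. On chromosome 2, from 18597816, 26762508 and 26898868, the parental values with tetracycline at this DNBrg1 density were 21.4, 20.5 and 21.4, and those without it 14.7, 13.4 and 13.4. DNCHD4 density at the same 3 sites was higher without tetracycline, at 25.4 and 35.3, 22.2 and 31.3, and 15.4 and 16.6.

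The DNSnf2h libraries, which took no part in the choice, listed about as many after-only sites without as with tetracycline. With tetracycline they listed 663 sites (42.0%, 39.6 to 44.4) and without it 699 (44.2%, 41.8 to 46.7), of which 488 were in both. There were 175 sites (11.1%, 9.62 to 12.7) listed with tetracycline only and 211 (13.4%, 11.8 to 15.1) listed without it only. Before-only sites gave 720 (23.4%, 21.97 to 24.97) and 206 (6.71%, 5.87 to 7.65), and sites in neither DNBrg1 list 752 (22.4%, 21.04 to 23.9) and 367 (10.9%, 9.93 to 12.04). Sites listed in all 6 libraries gave 6.75% and 10.07%. The state without tetracycline thus had more sites of its own both at after-only sites, with overlapping intervals, and at sites listed in all 6 libraries, and fewer at the other 2 sets. Over the 28297 shared sites the shares were 10.7% and 9.99%. Over all 99999 sites, 7.69% were listed with tetracycline only and 16.4% without it only. At least 1 DNSnf2h library listed 874 after-only sites (55.3%, 52.9 to 57.8), and 58.8% (57.1 to 60.5) of the sites in neither DNBrg1 list. Among the sites with the highest DNSnf2h density without tetracycline were chromosome 5 from 93192262 to 93193188, with 28.6 and 75.2 in DNSnf2h, 79.7 and 241 in parental and 55.8 and 186 in DNCHD4 cells, and 43.6 in DNBrg1 cells without tetracycline. Another was chromosome 1 from 159602270 to 159603175, with 81.6 and 83.0 in DNSnf2h, 80.9 and 103 in parental and 144 and 114 in DNCHD4 cells, but 17.6 in DNBrg1 cells.

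After induction the sites were no higher in the DNBrg1 line, relative to parental and DNCHD4 cells, than other sites were. The median log2 ratio of DNBrg1 to parental density, both without tetracycline, was -0.34 at after-only sites, -0.27 at sites listed in all 6 libraries and -0.24 over all 23616 sites listed in both. DNBrg1 cells were at least 2-fold below parental cells at 282 after-only sites (17.8%), beside 14.1% of the sites listed in both, and at least 2-fold above them at 1 (0.063%), beside 1.24%. Against DNCHD4 cells without tetracycline the median was -0.79, beside -0.74 at sites in all 6 libraries, with 606 sites (38.4%) at least 2-fold below, beside 29.5%, and 4 (0.25%) at least 2-fold above, beside 1.43%. These ratios hold the DNBrg1 density through which the sites were chosen and are a description only. Its 75th percentile was 17.1 at after-only sites and 43.6 over all sites listed. Since the parental list without tetracycline begins at 10.04, most after-only sites could not be counted as 2-fold above it. DNSnf2h cells were not part of this comparison.

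The share of after-only sites among shared sites differed between chromosomes along with the level of the DNBrg1 line. It was highest on chromosome 14, at 8.28% (78 of 942 sites, 6.69 to 10.2), chromosome 18, at 8.18% (63 of 770, 6.45 to 10.3), and chromosome 3, at 7.82% (124 of 1585, 6.6 to 9.25). It was lowest on chromosome 15, at 3.44% (42 of 1222, 2.55 to 4.61). On chromosomes 14, 18 and 3 the DNBrg1 library with tetracycline was low, at median log2 ratios of -0.47, -0.53 and -0.32 to the parental library relative to all sites, and the library without tetracycline was low as well, at -0.42, -0.45 and -0.26. On chromosome 15 these values were 0.27 and 0.22. Whether the level of the line set these shares was not tested. Sites in neither DNBrg1 list made up 22.1% and 23.4% of the shared sites of chromosomes 14 and 18, against 11.9% over all chromosomes, so both kinds of absence were more frequent there.

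**Figure D5:**
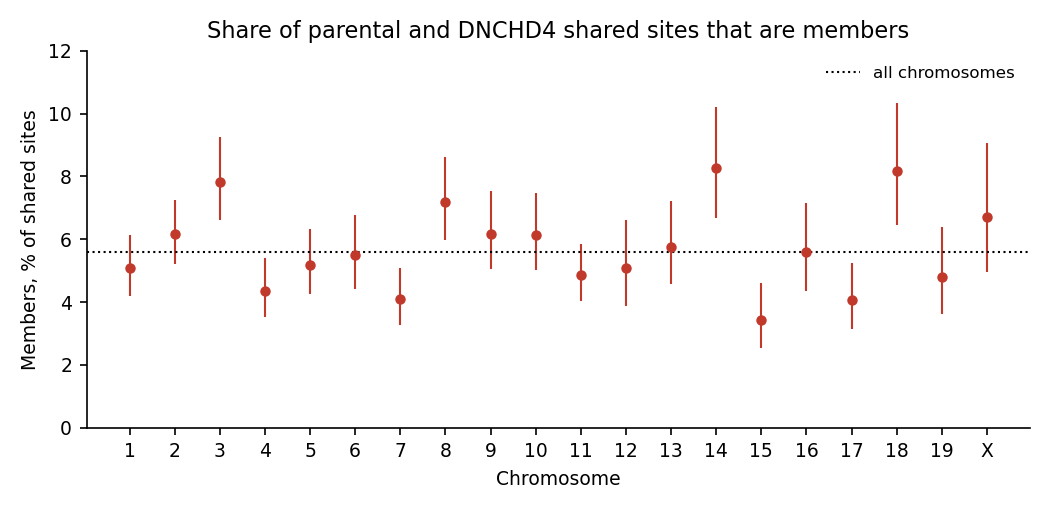
After-only sites as a percentage of the 28297 sites shared by the parental and DNCHD4 libraries, by chromosome; bars are Wilson 95% intervals and the dotted line is the value over all chromosomes, 5.58%. Chromosomes 14, 18 and 3 lie highest and chromosome 15 lowest.

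After-only sites were about as narrow, and as far from hotspots of DNBrg1 cells with tetracycline, as sites in neither DNBrg1 list. Their merged width had a median of 736 bp (25th to 75th percentile 661 to 924.5). It was 949 bp for sites in all 6 libraries, 764 bp for before-only sites and 725 bp for sites in neither DNBrg1 list. The hotspot of the DNBrg1 library itself was 537 bp wide in the median, and at 1569 sites (99.3%) it overlapped a hotspot of each of the 4 parental and DNCHD4 lists directly. The choice left out sites that overlap a hotspot of DNBrg1 cells with tetracycline. The nearest such hotspot was a median of 11272 bp away, within 500 bp at 103 sites (6.52%) and within 5 kb at 517 (32.7%). One lay within 50 kb at 82.0% of the sites, and none at 284. For sites in neither DNBrg1 list the median was 13383 bp, and the shares were 4.32%, 28.2% and 80%. The numbering of that list skipped a number at the position of 850 after-only sites (53.8%), against 43.4% of the sites in neither DNBrg1 list and 13.8% of all intervals between its hotspots. The labels do not say what the skipped numbers stood for. Among the 730 sites with no number missing, 265 reached 16.4 and 15 reached 2 times that density.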

How the data were processed

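DNase-seq hotspot lists of 8 libraries, 1 per group, were used. Per the submitters' processing notes, CASAVA 1.6 was used and coordinates are mm9. For the calling and filtering of hotspots, no tool is named in the sources used here. The lists that the authors deposited hold, per the file headers, 2 tag densities per hotspot (highest and mean, a signal scaled per library), a z-score and a p-value. The score and the p-value, deposited by the authors, were not used.

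Hotspots were merged at 1 bp of overlap. The value of a site was its highest density in a library. The step between densities gave tags (100% whole within 0.05). Ratios are densities without over with tetracycline, with exact binomial intervals on tags, and shares have Wilson intervals, both at 95%. The labels name no molecular identifiers, so tags may include copies of 1 molecule. Total depth is unknown. A site was called at 2-fold, on the deposited scale and again after setting the median of shared sites to 1. The calling and interval steps were tested on simulated data.

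Sites outside chromosome 18 were named by rank: the 6 highest over the lowest DNBrg1 density listed with tetracycline within 50 kb (or in the list), the 4 lowest and the 4 nearest the median DNBrg1 density without tetracycline, the 3 highest and 3 lowest parental ratios, and the 3 highest DNSnf2h densities without tetracycline. The dense run on chromosome 11 was set apart after the values were seen, as sites with 20 or more hotspots within 50 kb. The sites, sets and rules were chosen with earlier results of these data known. The gene tables at hand are on another build and were not joined. Python 3.11.15 was used with scipy 1.17.1, pandas 2.3.3 and numpy 2.4.6, and figures were drawn with matplotlib 3.10.9.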

Additional observations from a re-analysis of the deposited data

Results flagged for a closer look

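At the sites listed in DNBrg1 cells only after induction, the median log2 ratio of density without over with tetracycline had opposite signs in parental cells, at -0.16, and in DNCHD4 cells, at 0.26, as deposited. Each line has 1 library per state, so the difference was not tested. With the median of all sites of each line set to 0, the values were 0.24 and 0.23, of the same sign.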

How the results depend on the processing

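No paired analysis was possible because each group has 1 library and title numbers mark the tetracycline state, not a replicate. Of 97 values recomputed under 13 alternatives, 3 of them added after the data were seen, 20 moved and 77 were counted as staying. A count stayed within 1.5 times, and the DNSnf2h share within its Wilson interval. Median ratios were held only to the counting error of 1 site with the median tags, which is a wide allowance. No median ratio moved by it, although the parental and DNSnf2h medians changed sign in some settings. Staying therefore says little about the medians. The 1580 sites became 730 without positions where a number is missing, 1051 without 100 kb windows of 10 or more sites, 262 with all lists begun at 16.4, and 448 with only the DNBrg1 list without tetracycline begun there. In the first 3 of these, the sites at or above 16.4 in DNBrg1 cells numbered 265, 253 and 262, and in parental cells with tetracycline 536, 743 and 262. Both counts of 262 were fixed in advance, since all lists then begin at 16.4. Sites at 2 times that density numbered 15 and 7 in the first 2. With each list begun at 1.5 times its lowest density, 238 sites reached the floor and 11 reached 2 times it. They were 1316 and 188 after the DNBrg1 medians were matched, and 1578 and 1531 with mean in place of highest density, each against the lowest mean density listed. The share in at least 1 DNSnf2h list was 40.1% with a common floor and 44.3% with floors raised 1.5 times, where those lists are shorter too. The median parental ratio was -0.22 to 0.24, above 0 with the median set to 1 (0.24) and with a common floor (0.14). The DNSnf2h median was -0.05 to 0.22, and the DNCHD4 median 0.23 to 0.45. The lowest hotspot of the DNBrg1 library with tetracycline held 28 tags, and densities below it cannot be compared.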

Other observations

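The sites lay in 937 of the 2066 windows of 1 Mb that held a site shared by the parental and DNCHD4 libraries, with 7 at most in a window and 5 or more in 19. The windows with 7 were on chromosome 5 from 143 to 144 Mb, among 40 shared sites, and on chromosome 8 from 87 to 88 Mb, among 52. Of the after-only sites, 239 (15.1%) had another after-only site as the next shared site on either side, against 10.8% of all shared sites.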
